A study of Homo sapiens with 6 samples.

Results

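The tricarboxylic acid (TCA) cycle enzymes examined here are the 9 genes CS, IDH3A, IDH2, OGDH, DLST, SUCLG1, SUCLA2, FH and MDH2, taken by their symbols from the 31369 genes of the count table. Each symbol matched 1 row, and all 9 passed the filter on low counts that left 15878 genes for testing. RNA of HK-2 cells, an immortalised line of human kidney proximal tubule cells, was sequenced in 3 samples of a control group (NC, genotype entry WT) and 3 samples of a group with PPM1K overexpressed from a plasmid (OE). PPM1K is the mitochondrial phosphatase that activates the branched-chain ketoacid dehydrogenase, and the comparison asks how its overexpression changed the transcripts of the cells. Every sample carries the entries day 10 and chronic kidney disease, although it is a cultured line, and the titles name a short hairpin against PPM1K in the OE samples and a control hairpin in the NC samples, against the genotype entries. The transfection was done with a lipid reagent, and beyond the title what the NC cells received is not given in the sources used here. The cell type entry is HK-2 in every sample, while the cell line entries carry a different number after HK in each, and all were taken as HK-2. In bulk RNA of this kind, fewer cells of a state and less RNA per cell cannot be told apart.

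The TCA cycle burns acetyl-CoA in the mitochondrial matrix, passes electrons to the respiratory chain through NADH and succinate, and supplies carbon for amino acids, lipids and haem. Proximal tubule cells depend on it for the ATP that drives reabsorption. Several of its enzymes are built of different subunits encoded by separate genes, so a change in 1 gene need not be matched by its partners.

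PPM1K itself had counts of 37, 19 and 53 in the NC samples and 3294, 3531 and 2919 in the OE samples, which is the direction of the genotype entry and not that of the titles. Between 34635770 and 39850802 counts were assigned per sample, and the counts of the 9 genes lay between 635 and 4329, so the counting error of any single value was at most 3.97%. NC replicate 2 had counts in 26478 genes and the other samples in 22094 to 22913. In the read distribution given by the authors it also had the largest intronic, intergenic and antisense shares of all samples. The part of NC replicate 2 in the results was not tested beyond the fits without it. Of 15 renal epithelial markers, 12 had a value, and KRT8, KRT18, CDH2 and PAX8 had a mean FPKM (mapped fragments per kilobase, scaled to library size) above 1, while AQP1, CUBN and SLC34A1, which define the differentiated proximal tubule, were near 0. The list summed to 479.57 to 538.61 in NC and 433.1 to 464.32 in OE, with KRT8 lower (log2 fold change −0.48) and PAX8 higher in OE (0.25). Of the markers with a mean FPKM under 1, GGT1 (−1.09) and SLC5A2 (−1.08) were lower in OE and MME (0.41) was higher. All of these had an adjusted p under 0.05 in edgeR. Of 4 fibroblast markers, COL1A1 and LUM were above 1 in NC and the summed FPKM of the list was 2.94 to 3.1 in NC and 1.1 to 1.15 in OE, with DCN and PDGFRB near 0 in both. The 4 endothelial markers summed to 0.56 to 0.71 in NC and 0.78 to 0.9 in OE, the 4 leukocyte markers to at most 0.1, and the part of these lists in the results below was not tested.

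Most TCA cycle enzyme genes had nearly the same level in both groups, and IDH2 had the largest difference. At an adjusted p under 0.05 in edgeR's quasi-likelihood test, IDH3A was higher in OE and IDH2 and SUCLA2 were lower, which makes 3 of the 9 genes, while 48.6% of all tested genes passed the same threshold (24.9% higher and 23.7% lower). Among the 6460 tested genes counted at least as deeply as SUCLA2, the least counted of the 9, the share was 63.8% (37.7% higher and 26.1% lower). None of the 9 passed the rule of the study, which asks in addition for a fold change above 2 or below 0.5. With edgeR here, 5.51% of the tested genes passed it (1.73% higher and 3.79% lower). The study applied its rule to DESeq2 results. DESeq2, run here on all 31369 genes as an alternative, gave 237 higher and 527 lower genes past the rule, and none of the 9. The 95% interval of every one of the 9 in edgeR lay inside a fold change of 2 in either direction, as did those of 6264 of the 6460 equally counted genes. The other 6 genes, CS, OGDH, DLST, SUCLG1, FH and MDH2, had log2 fold changes under 0.1 in size, as did 20.2% of all tested genes and 23.7% of the equally counted ones. The median size of the log2 fold change was 0.047 for the 9 genes and 0.27 for all tested genes, and the signed medians were −0.018 and −0.0032.

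**Figure D1:**
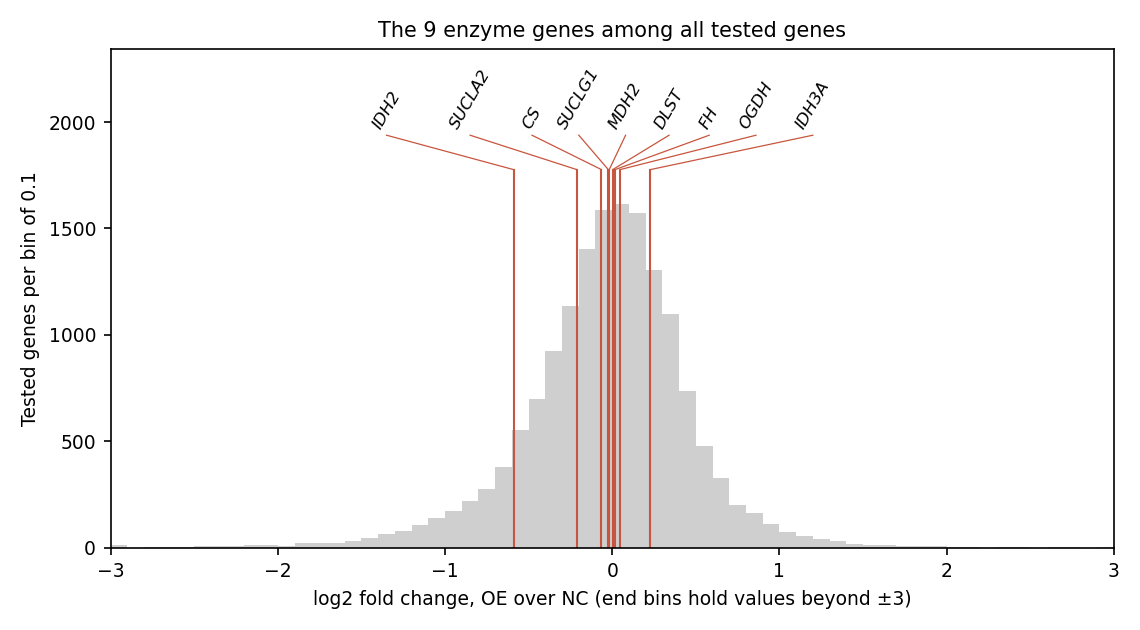
Grey bars give the number of tested genes in each 0.1-wide bin of the log2 fold change of OE over NC, and red lines mark the 9 TCA cycle enzyme genes. IDH2 lies farthest left of the 9 at −0.59, SUCLA2 lies at −0.21, IDH3A at 0.23, and the other 6 lie close to 0.

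IDH2 (ENSG00000182054.10, chromosome 15, 90083045 to 90102477 on the minus strand, GRCh38) encodes the mitochondrial NADP-dependent isocitrate dehydrogenase, which supplies NADPH for glutathione and thioredoxin recycling and can run in reverse. As CPM, the counts scaled to a common library size, IDH2 stood at 108.9, 99.0 and 106.4 in NC and at 70.7, 73.6 and 64.4 in OE. All 3 OE samples lay below all 3 NC samples. The gene fell by 33.6% from 104.8 ± 5.15 to 69.6 ± 4.70 CPM (SD, n = 3), with a log2 fold change of −0.59 (SE 0.058, edgeR adjusted p = 3.8e-08). Of all tested genes, 10.8% had a lower log2 fold change, and no other annotated gene shares its exons.

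IDH3A (ENSG00000166411.14, chromosome 15, 78131498 to 78171945 on the plus strand) encodes the catalytic alpha subunit of the NAD-dependent enzyme, which carries the forward flux of the cycle. Its CPM was 25.2, 25.6 and 26.3 in NC and 30.4, 28.8 and 31.2 in OE. The OE samples were all above the NC samples, so that IDH2 and IDH3A were the 2 of the 9 genes whose groups did not overlap, against 55.3% of all tested genes (28.2% higher and 27.1% lower). The log2 fold change was 0.23 (SE 0.069, edgeR adjusted p = 0.0094), a fold change of 1.17 with a 95% interval of 1.06 to 1.29. Against a null of a fold change of 1.2 instead of no change, the call of IDH2 was kept (adjusted p = 1.8e-05 from edgeR's glmTreat). That of IDH3A was lost (adjusted p = 0.75), as it had to be with an estimate below 1.2. Of the exon bases of IDH3A, 38.8% are shared with other annotated genes, mainly 2608 bases with ACSBG1 on the opposite strand, for which no sample had more than 2 counts.

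The partner subunits did not move with IDH3A. IDH3G, a regulatory subunit, had 64.6, 59.0 and 57.7 CPM in NC and 36.9, 39.2 and 33.1 in OE, and fell by 39.7% (log2 fold change −0.73, edgeR adjusted p = 1.4e-08). It shares 267 of its 2699 exon bases with SSR4 on the opposite strand, which had 780 to 933 counts in NC and 683 to 745 in OE. IDH3B, the other regulatory subunit, went from 163 ± 6.80 to 148 ± 6.30 CPM (SD, n = 3), a log2 fold change of −0.14 (edgeR adjusted p = 0.025), and its call was lost in 7 of 16 alternative settings, among them the fits without NC replicate 1, NC replicate 3 or OE replicate 3 (adjusted p from 0.068 to 0.17 in edgeR). The ratio of IDH3A to IDH3G counts inside each sample, which does not depend on library scaling, was 1.95 times as high in OE as in NC, that of IDH3A to IDH3B 1.29 times and that of IDH2 to IDH3A 0.567 times. In each of these ratios the groups did not overlap, which gives the smallest exact two-sided permutation p that 3 samples against 3 allow, 0.1, or 0.22 adjusted over 11 ratios. On the FPKM scale IDH3B was the most abundant of the 3 subunits in both groups, with 58.6 ± 2.89 in NC, while IDH3A had 3.47 ± 0.0777 and IDH3G 20.5 ± 1.43 (SD, n = 3). Cytosolic IDH1, the paralog of IDH2, had 25.6 ± 1.04 CPM in NC and 28.6 ± 2.85 in OE (SD, n = 3, log2 fold change 0.16, edgeR adjusted p = 0.094), and the IDH2 to IDH1 ratio was 0.595 times as high in OE.

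**Figure D2:**
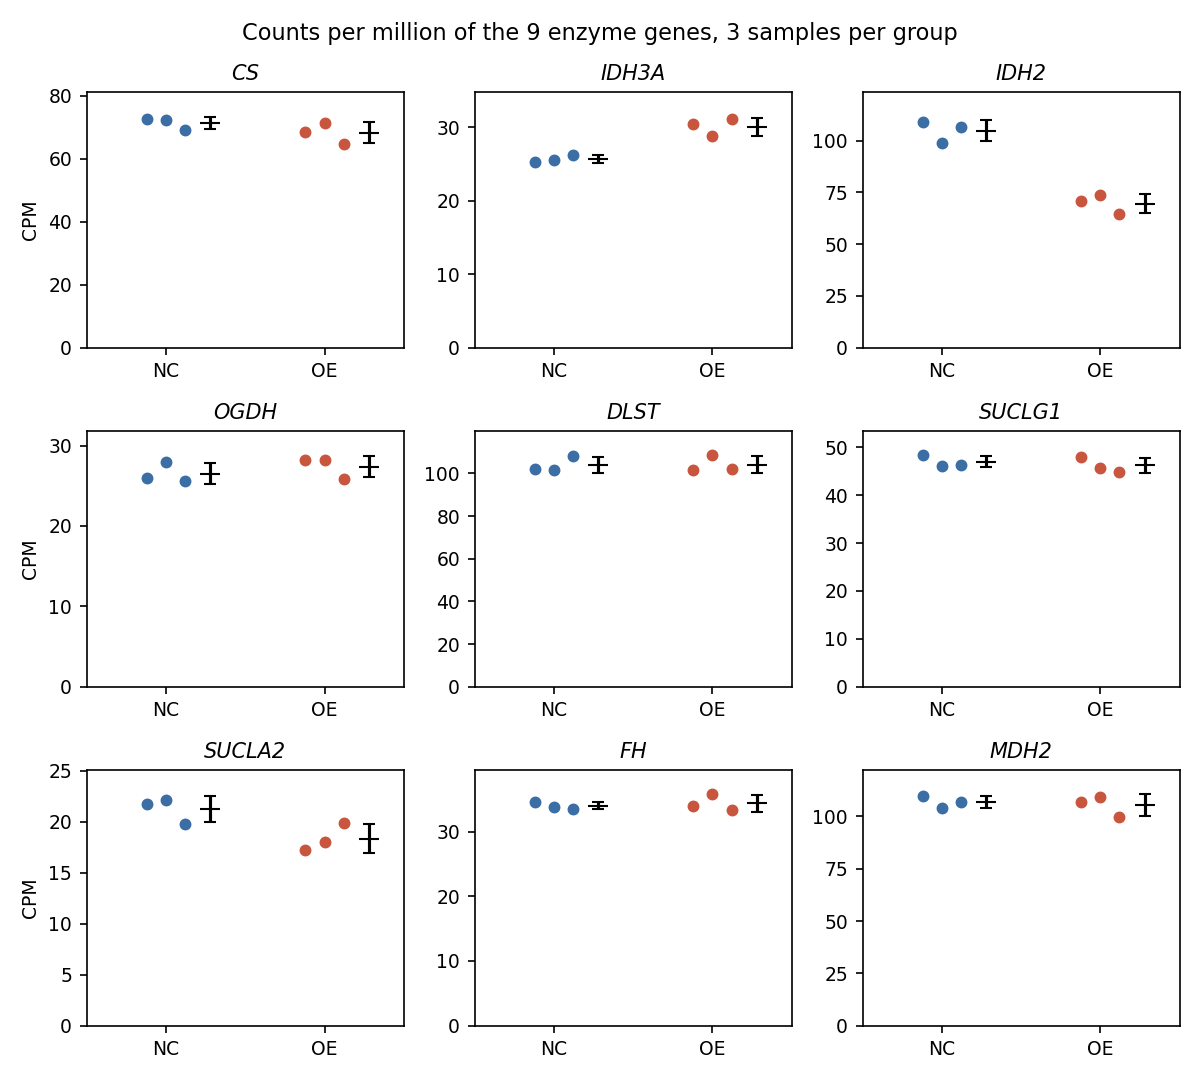
Each panel shows 1 TCA cycle enzyme gene, with the CPM of the 3 NC samples in blue and the 3 OE samples in red on an axis from 0, and the mean ± SD in black. The groups are apart for IDH2, 99.0 to 108.9 against 64.4 to 73.6, and for IDH3A, 25.2 to 26.3 against 28.8 to 31.2, and overlap in the other 7 panels.

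Succinyl-CoA ligase makes ATP or GTP directly from succinyl-CoA and consists of the alpha subunit SUCLG1 and 1 of a pair of beta subunits, the ADP-forming SUCLA2 or the GDP-forming SUCLG2. SUCLG1 (chromosome 2, 84423528 to 84460045, minus strand) had 48.4, 46.2 and 46.4 CPM in NC and 48.0, 45.8 and 45.0 in OE. The samples of both groups were interleaved, and the log2 fold change was −0.023 (edgeR adjusted p = 0.76), with a 95% interval of the fold change from 0.906 to 1.07. SUCLA2 (chromosome 13, 47745736 to 48037968, minus strand) had 21.8, 22.2 and 19.8 CPM in NC and 17.2, 18.0 and 19.9 in OE. OE replicate 3 lay just above the lowest NC sample, and the gene fell by 13.6% (log2 fold change −0.21, SE 0.081, edgeR adjusted p = 0.035). That call was lost in 10 of 16 alternative settings, among them DESeq2 (adjusted p = 0.072) and the fits without NC replicate 1, NC replicate 2, OE replicate 1 or OE replicate 2 (adjusted p from 0.094 to 0.15 in edgeR). SUCLG2 had 30.4, 33.5 and 32.8 CPM in NC and 21.1, 20.7 and 23.3 in OE. It fell by 32.7% with no overlap between the groups (log2 fold change −0.57, edgeR adjusted p = 1.9e-06). The SUCLA2 to SUCLG2 ratio was 1.28 times as high in OE, again with groups that did not overlap (exact permutation p = 0.1, adjusted 0.22).

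Inside the 300-base promoter windows of RefSeq (GRCh38.p14, 250 bases before to 50 after the start), IDH3A and SUCLA2 were the 2 of 8 matched TCA cycle enzyme genes that held the core motif of NRF1, a regulator of nuclear genes for mitochondria. It was searched on both strands as GCGCA, any 1 base, then GCGC, and is held by 5.78% of all 35116 windows. A gene can have several windows and was counted when any of them held a motif. The shares given for all motifs are of single windows, so the counts of genes are not the same measure. Of the 10 other subunits, IDH3G, SDHA and SDHD held it too. Among the remaining listed genes it was held by MDH1B, GLUD1, PCCB, SLC25A11, MPC2, SDHAF3, SDHAF4 and SIRT5. The matches of IDH3A, SUCLA2 and IDH3G are shown because IDH3A and SUCLA2 are the members called besides IDH2 and IDH3G is a partner of IDH3A, with the motif, here on the reverse strand, in capitals.
IDH3A, chr15:78149342-78149371, plus strand: cgtggggtggGCGCTTGCGCactgccgctg
SUCLA2, chr13:48001292-48001321, minus strand: tgtcgcctgtGCGCCTGCGCgcggcgccga
IDH3G, chrX:153794418-153794447, minus strand: gtgcgaccgcGCGCGTGCGCagtaccgggt
The match starts 10 bases before the annotated start in IDH3A, 38 before in SUCLA2 and 62 before in IDH3G. IDH3A was higher and SUCLA2 and IDH3G were lower in OE. The windows of the 8 genes held no match to TGATGNAA, the element bound by ATF4 and CHOP (3.62% of all windows), to the cyclic AMP response element TGACGTCA (1.85%) or to TCAAGGTCA, the site of the oestrogen-related receptors (0.353%), both strands searched. Among the other listed genes the first was matched in GOT1 and SLC25A11, the second in SDHB and the third in SDHD. The CCAAT box, held by 34.6% of all windows, was matched in CS, SUCLA2, SUCLG1 and FH of the 8. OGDH had no window among these promoters, so it was not searched for any motif.

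Citrate synthase, CS (chromosome 12, 56271699 to 56300391, minus strand), joins acetyl-CoA to oxaloacetate at the entry of the cycle and often serves as a measure of mitochondrial content. It had 72.8, 72.3 and 69.0 CPM in NC and 68.5, 71.4 and 64.7 in OE. The groups overlapped, with a log2 fold change of −0.064 (edgeR adjusted p = 0.35) and a fold change interval of 0.884 to 1.03. CS shares 220 of its 6401 exon bases with a protein-coding gene on the same strand that had 4804 to 5715 counts, where CS had 2352 to 2824, so its counts are uncertain.

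The oxoglutarate dehydrogenase complex is built like the branched-chain ketoacid dehydrogenase that PPM1K acts on and shares its E3 subunit, DLD. OGDH, its E1 subunit (chromosome 7, 44606572 to 44709066, plus strand), had 25.9, 28.0 and 25.6 CPM in NC and 28.2, 28.1 and 25.8 in OE. DLST, the E2 core (chromosome 14, 74881891 to 74903743, plus strand), had 102.0, 101.6 and 108.1 CPM in NC and 101.4, 108.5 and 102.3 in OE. For both genes the groups overlapped, with log2 fold changes of 0.047 and 0.0032 (edgeR adjusted p = 0.62 and 0.96) and fold change intervals of 0.931 to 1.15 and 0.931 to 1.08. DLD had a log2 fold change of −0.052 (edgeR adjusted p = 0.43) and MRPS36, which anchors the complex, one of 0.20 (adjusted p = 0.16). Neither the OGDH to DLST ratio nor that of DLST to DLD separated the groups (exact permutation p = 0.5 for each). The relatives of OGDH were lower in OE. OGDHL, a tissue-restricted paralog, fell by 35.8% (log2 fold change −0.64, edgeR adjusted p = 3.7e-06) and DHTKD1, the E1 subunit of the oxoadipate dehydrogenase of lysine breakdown, fell by 43.1% (log2 fold change −0.81, edgeR adjusted p = 4.5e-07), both without overlap between the groups.

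FH (chromosome 1, 241497511 to 241519799, minus strand) encodes fumarase, which hydrates fumarate to malate, and MDH2 (chromosome 7, 76048051 to 76067508, plus strand) the malate dehydrogenase that closes the cycle. FH had 34.6, 33.8 and 33.5 CPM in NC and 34.0, 35.8 and 33.3 in OE, while MDH2 had 109.6, 103.9 and 106.7 in NC and 107.1, 109.5 and 99.7 in OE. FH had OE samples above and below all NC samples, and the MDH2 groups overlapped, with OE replicate 3 lowest. Their log2 fold changes were 0.017 and −0.018 (edgeR adjusted p = 0.84 and 0.80), and the fold change intervals were 0.923 to 1.11 and 0.917 to 1.06. The ratio of MDH2 to its cytosolic paralog MDH1, its partner in the malate-aspartate shuttle, differed 0.989-fold between the groups (exact permutation p = 0.9). No other annotated gene shares exon bases with FH or MDH2, nor with OGDH or DLST. SUCLG1 shares 269 and SUCLA2 179 with genes on the opposite strand.

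**Figure D3:**
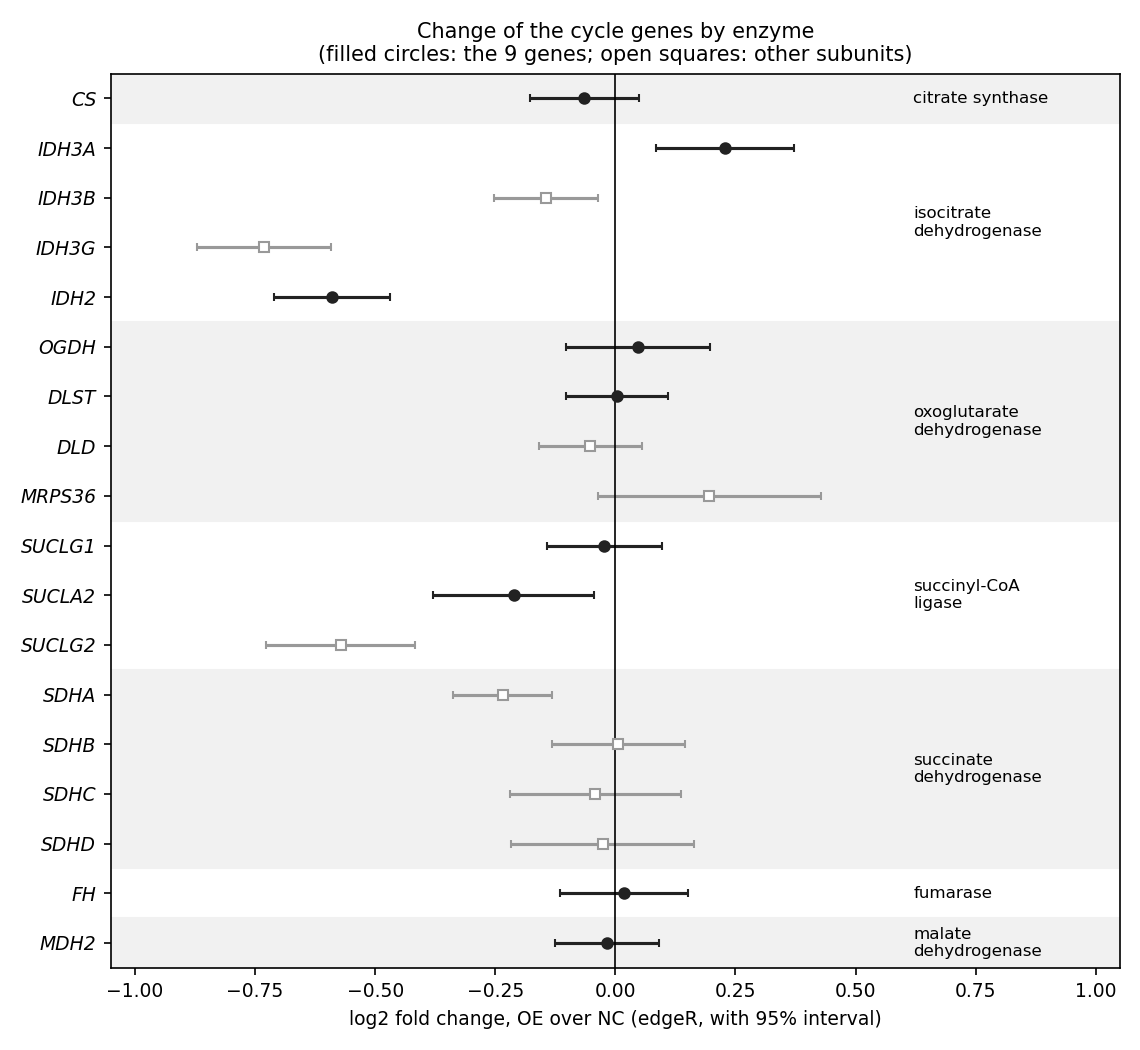
Points give the log2 fold change of OE over NC with its 95% interval from edgeR for genes of the cycle, grouped by enzyme, with filled circles for the 9 genes and open squares for other subunits. IDH3G, IDH2 and SUCLG2 lie between −0.73 and −0.57, SDHA at −0.23, and the intervals of CS, OGDH, DLST, SUCLG1, FH and MDH2 cross 0.

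Of 10 other subunits of the cycle, all tested, none was higher and 4 were lower in OE at an adjusted p under 0.05, where 24.9% of all tested genes were higher and 23.7% lower, and their median log2 fold change was −0.073. Besides IDH3G, SUCLG2 and IDH3B the count holds SDHA, the flavoprotein of succinate dehydrogenase, at 241 ± 8.27 CPM in NC and 205 ± 6.51 in OE (SD, n = 3, log2 fold change −0.23, edgeR adjusted p = 0.00052). SDHB, SDHC and SDHD, its iron-sulfur and membrane subunits, had log2 fold changes from −0.042 to 0.0064. SDHA shares 1887 of its 8703 exon bases with another protein-coding gene on the same strand, so its counts are uncertain.

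Among 7 cytosolic counterparts and paralogs, 4 were lower and 1 was higher at an adjusted p under 0.05, beside 23.7% and 24.9% of all tested genes. The lower genes were OGDHL, DHTKD1, the cytosolic aconitase and iron sensor ACO1, which went from 50.7 ± 0.767 to 34.1 ± 1.99 CPM (SD, n = 3, log2 fold change −0.57), and ACLY, which turns exported citrate into acetyl-CoA for lipid synthesis (log2 fold change −0.54). MDH1B, a paralog of MDH1, was higher at 4.07 CPM in OE and 2.50 in NC (log2 fold change 0.70, edgeR adjusted p = 0.0011).

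Of 18 listed genes that refill or drain the cycle, 16 were tested, and 5 were higher and 4 were lower in OE at an adjusted p under 0.05, shares near the 24.9% and 23.7% of all tested genes. PCK2, the mitochondrial enzyme that turns oxaloacetate into phosphoenolpyruvate, had 26.2, 23.2 and 26.5 CPM in NC and 64.6, 62.2 and 55.3 in OE. It was the 1 gene of any of these lists past the rule of the study for higher genes, with a log2 fold change of 1.26 (edgeR adjusted p = 7.5e-12), where 1.73% of all tested genes passed that rule. The alanine transaminase GPT2, which makes oxoglutarate from glutamate, had 56.1 ± 2.48 CPM in NC and 98.0 ± 1.31 in OE (SD, n = 3, log2 fold change 0.81), and the cytosolic aspartate transaminase GOT1 35.8 ± 2.36 and 57.8 ± 1.91 (SD, n = 3, log2 fold change 0.69). In the other direction stood the malic enzyme ME3 with a log2 fold change of −0.42 and the mitochondrial aspartate transaminase GOT2 with −0.30. GLUD1, the glutamate dehydrogenase, had a log2 fold change of 0.020, and PCK1 and GPT, the other forms of PCK2 and GPT2, were at or near 0 counts.

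**Figure D4:**
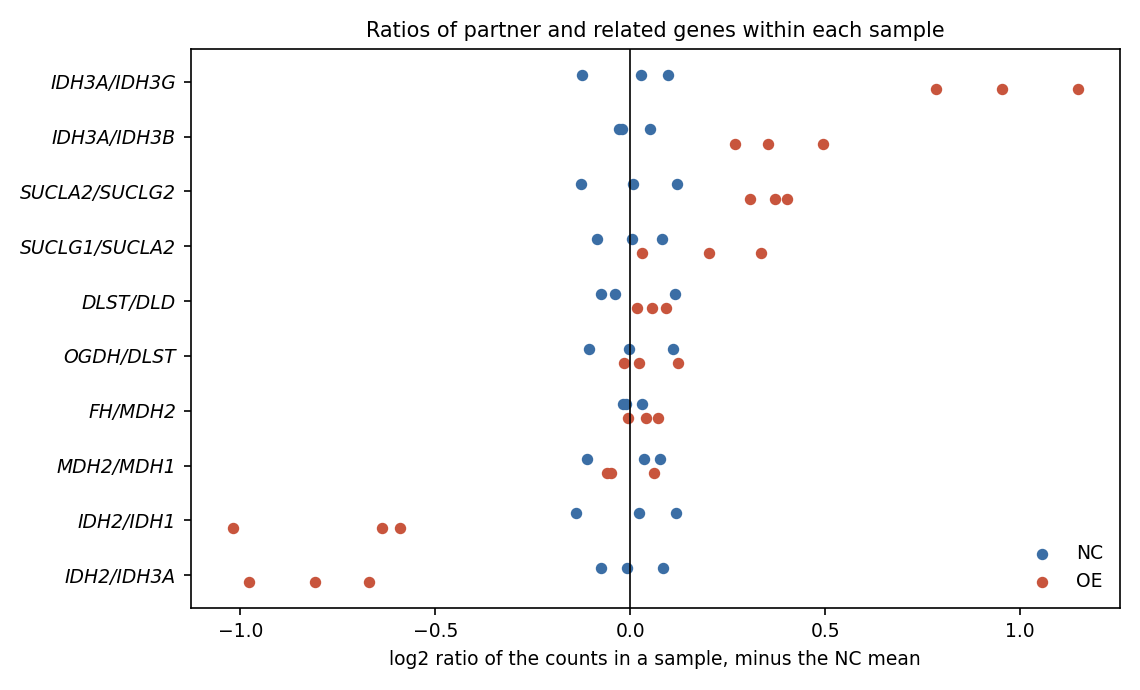
Each row is the log2 ratio of the counts of a pair of genes within a sample, set to 0 at the NC mean, with NC samples in blue and OE samples in red. The ratios IDH3A/IDH3G, IDH3A/IDH3B, SUCLA2/SUCLG2, IDH2/IDH1 and IDH2/IDH3A separate the groups, and the other 5 shown overlap.

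In levels per length, the deposited FPKM of the 9 genes in NC ran from IDH2 with 34.7 ± 2.13 over MDH2 with 27.0 ± 1.06, DLST with 21.0 ± 0.831, SUCLG1 with 10.4 ± 0.387, CS with 10.3 ± 0.315, OGDH with 4.69 ± 0.175, IDH3A with 3.47 ± 0.0777 and FH with 3.35 ± 0.0907 to SUCLA2 with 2.21 ± 0.127 (SD, n = 3). Neighbours in this order were apart in their ranges except SUCLG1 and CS, and IDH3A and FH. In OE, MDH2 was highest with 27.0 ± 1.11 and IDH2 followed with 23.3 ± 1.42, overlapping DLST with 21.4 ± 0.914 (SD, n = 3). The summed FPKM of the 9 genes was 120.6, 112.7 and 118.0 in NC and 105.6, 110.4 and 103.4 in OE, and without IDH2 it was 84.2, 80.4 and 82.7 in NC and 82.3, 85.7 and 81.5 in OE. With IDH2 every OE sum was below every NC sum, and without it the sums overlapped.

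The order of the genes depends on the length by which the counts were divided. The lengths that the deposited counts and FPKM imply are known only up to a scaling factor per sample. With total counts as the scale, they were 1.07 times the joined length of all annotated exons for each of the 9 genes. That joined length is 9350 bases for FH, where its canonical transcript has 1791, and 8879 for SUCLA2 against 2111. Per kilobase of the canonical transcript of GENCODE release 44, a scale added after the values had been seen, MDH2 led in NC with 49.4 ± 1.01 CPM per kilobase, followed by IDH2 with 39.6 ± 1.60, SUCLG1 with 37.2 ± 0.896, DLST with 37.1 ± 1.03, CS with 24.6 ± 0.886, FH with 19.0 ± 0.354, SUCLA2 with 10.1 ± 0.691, OGDH with 6.35 ± 0.376 and IDH3A with 6.32 ± 0.121 (SD, n = 3). FH thus moved from rank 8 to 6 and IDH3A from 7 to 9. On this scale IDH2 overlapped SUCLG1 in NC and fell to rank 4 in OE, below DLST and SUCLG1.

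**Figure D5:**
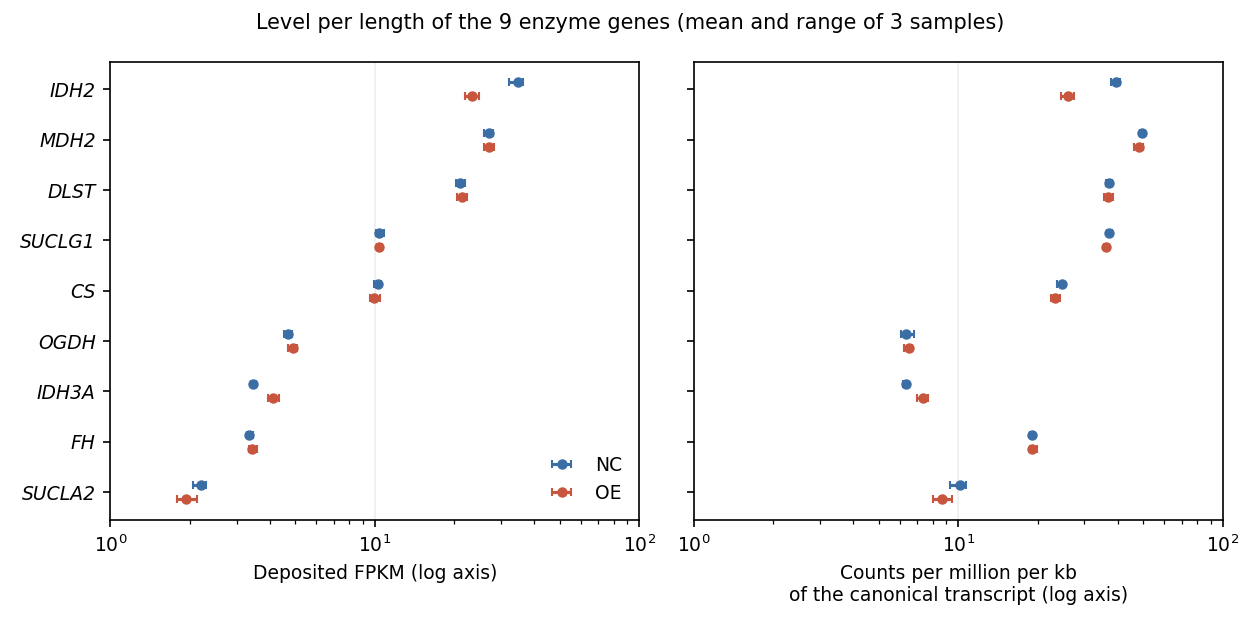
Points give the mean and bars the range of 3 samples for each of the 9 genes in NC (blue) and OE (red), on log axes, as deposited FPKM on the left and as CPM per kilobase of the canonical transcript on the right. IDH2 is the gene whose groups lie farthest apart on both scales, and FH lies at 3.35 on the left and 19.0 on the right in NC.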

How the data were processed

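RNA sequencing of 6 HK-2 samples, 3 per group, was analysed. Reads were trimmed by the authors with FASTX-Toolkit and mapped with HISAT2 (GRCh38). Genes were counted from reads with a unique position, and the deposited counts are not normalized. The authors computed the deposited FPKM from the same reads. The labels list mm10 as well, which was not used. The libraries were made with a stranded kit. Counting program, annotation and use of strand in counting are not given in the sources used here.

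The deposited counts were tested with edgeR 4.0.16 in R 4.3.3 (filterByExpr, TMM, quasi-likelihood F-test, Benjamini-Hochberg over all 15878 tested genes), with DESeq2 1.42.0 and limma 3.58.1 on log2(FPKM + 1) and log2(FPKM + 0.1) as alternatives. CPM is scaled to library size with TMM, except CPM per kilobase, which is scaled to library totals alone. The script was tested on simulated counts. Ratios were compared by exact two-sided permutation. Gene models came from GENCODE release 44, where 99.8% of the gene identifiers were found, and the 2 decimals of FPKM limit low values. p-values measure the spread between these samples, whose separate cultures are not stated, and intervals of single counts cover counting error only. Replicates were not copies of 1 library (mean chi-square per gene 5.12 to 7.13 between NC samples, 6 between OE replicates 1 and 2, and 11.7 and 10.6 between these and OE replicate 3).

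The 9 genes and all lists were chosen with earlier results of these data known. Outside the 9 genes and the genes of the 11 ratios, the text names genes past the rule of the study and up to 3 per list and direction with the largest change at an adjusted p under 0.05 and a mean count of at least 100. ACLY, MRPS36, SDHB, SDHC, SDHD, GLUD1, PCK1, GPT and SDHAF2 were chosen after their values were seen. Genes that the rule names and the text does not are not reported here, and the ratio left out with them counts among the 11. Figures were drawn with matplotlib 3.10.9.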

Additional observations from a re-analysis of the deposited data

How the results depend on the processing

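The result for IDH2 kept its direction and its call in all 16 alternatives (log2 fold change −0.63 to −0.54, adjusted p at most 0.0021), and CS and OGDH stayed uncalled with their sign. IDH3A lost its call in 1, glmTreat against a fold change of 1.2 (0.23). The estimates of IDH3A, SUCLA2 and IDH3B are smaller than a fold change of 1.2, so glmTreat could not call these genes. SUCLA2 lost its call with DESeq2 (−0.21), no filter on low counts (−0.21), glmTreat (−0.21), the replicate block (−0.21) and limma on log2(FPKM + 1) (−0.13) and log2(FPKM + 0.1) (−0.18), and with single samples left out it lay between −0.28 and −0.16. The members lower in OE thus numbered 1 with each of these and 1 to 2 with a sample left out, and those higher 0 with glmTreat. Deviations of same-numbered samples of the groups correlated at −0.0032, −0.066 and −0.054, and 0 of 6 samples correlated best with their own number. These values showed no pairing by number but cannot exclude it. Whether same-numbered samples were handled together is not stated. The replicate block gave 3607 higher and 3458 lower genes and changed no other call among the 9. Without a call, values near 0 changed sign: DLST to −0.035 with upper quartile normalization, −0.011 with library totals and −0.0033 with at least 10 counts in every sample, FH to −0.020 with upper quartile normalization, MDH2 to 0.0011 and 0.0012 with limma, and MDH1 to 0.0024 with DESeq2 and 0.016 and 0.018 with limma. With single samples left out DLST ranged from −0.025 to 0.037, FH from −0.010 to 0.036, MDH2 from −0.043 to 0.018, SUCLG1 from −0.045 to 0.0026 and MDH1 from −0.056 to 0.0585, and the log2 ratio differences from −0.072 to 0.021 for MDH2/MDH1 and −0.0098 to 0.10 for OGDH/DLST. Over all genes glmTreat gave 1694 higher and 1881 lower, and limma 2499 and 2504 lower, with 56 and 173 higher and 67 and 340 lower past the fold threshold. With glmTreat 2 other cycle subunits were lower, 3 refilling and draining genes higher and 1 lower, 1 carrier higher and 1 lower, and 1 assembly gene higher and 0 lower. With limma 1 assembly gene was higher. The cause of these changes was not tested. With samples left out, 0 to 1 assembly genes were lower (0 without OE replicate 3) and 1 to 2 refilling genes passed the fold threshold (2 without NC replicate 1). Groups of 3 limit every exact permutation p to 0.1 or more.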

Other observations

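Of 12 listed carriers of cycle intermediates, 9 were tested, and 3 were higher and 2 lower in OE at an adjusted p under 0.05 from edgeR, where 24.9% and 23.7% of all tested genes were. SLC25A12, the aspartate-glutamate carrier, had 9.21 ± 0.234 CPM in NC and 12.9 ± 1.13 in OE (SD, n = 3, log2 fold change 0.48), SLC25A11, the oxoglutarate-malate carrier, 11.2 ± 0.377 and 14.6 ± 1.11 (SD, n = 3, log2 fold change 0.38), and SLC25A22, a glutamate carrier, a log2 fold change of 0.38 that was lost in 7 of 16 alternatives, among them those without NC replicate 1, NC replicate 2 or OE replicate 2 (edgeR adjusted p from 0.060 to 0.20). SLC25A1, which exports citrate, had 38.6, 34.3 and 39.6 CPM in NC and 25.5, 24.4 and 20.5 in OE and fell by 37.4% (log2 fold change −0.68, edgeR adjusted p = 7.5e-07). MPC2, a subunit of the pyruvate carrier, had a log2 fold change of −0.38 (edgeR adjusted p = 0.00034). It shares 575 of its 2638 exon bases with other annotated genes, whose strand and counts were not looked up, so its counts are uncertain. With glmTreat the calls of MPC2 (adjusted p = 0.087) and SLC25A11 (adjusted p = 0.10) were also lost.

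Of 9 genes for succinate dehydrogenase assembly, lipoylation and deacylation, all tested, SDHAF3 (log2 fold change 0.52, edgeR adjusted p = 0.00023) and the lipoate synthase LIAS (0.35, adjusted p = 0.0038) were higher and SDHAF4 (−0.42, adjusted p = 0.014) was lower in OE, beside the same shares of all tested genes. The call of SDHAF4 was lost in 2 of 16 alternatives, without OE replicate 3 (−0.33, edgeR adjusted p = 0.063) and with glmTreat (adjusted p = 0.15). That of LIAS was lost in 3, glmTreat (adjusted p = 0.19) and limma on log2(FPKM + 1) and log2(FPKM + 0.1) (adjusted p = 0.073 and 0.066). SDHAF2 had between 8 and 20 counts, and it shares 759 of its 1696 exon bases with a same-strand protein-coding gene that had 598 to 782 counts, so its level is uncertain.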
